A study of Bos grunniens and Bos taurus with 11 samples.

Results

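The tables of the 11 lung libraries list 331 names taken from plant entries of miRBase and 1046 names that the authors predicted from the reads. The libraries fell into 2 sets by how many of the plant-prefixed names held at least 1 read. Of the 11, 2 had fewer than 50 such names. They were CON 1 (ZSlg01) with 28 and T2 2 (BGlg02) with 19, and the remaining 9 held 88 or more, with T2 1 (LZlg01), at 88, as the lowest. The 2 libraries were chosen by these counts, which are given as a description. The comparison below was made across the predicted names, with RPM (a name's reads per 1000000 reads) recomputed over those names, so that the plant-prefixed reads did not enter it. Predicted names are given by number and arm, such as m0270-3p.

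MicroRNAs are small RNAs cut from hairpin precursors. The 5p and the 3p strand of a precursor can both be sequenced, and usually one of them accumulates while the other, the passenger strand, is degraded. In small RNA sequencing, the levels of single names depend on the tissue and also on how the library was prepared. In lung tissue, animal miRNAs such as miR-126 of endothelium and miR-143 of smooth muscle are usually abundant, and plant miRNAs are not made by the animal.

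The CON group held 2 Zaosheng cattle from 1500 m, and the yak groups T1, T2 and T3 held 3 animals each from 3400, 4200 and 5000 m. No treatment was given in the labels, and 1 library was made per animal. The T2 yaks came from 3 different counties per the study, so T2 1, T2 2 and T2 3 also differ in place. The split put 1 cattle and 1 yak library on the same side, and T1 and T3 held none of the libraries with few plant-prefixed names. The extraction text in the labels speaks of retinas, while tissue is given as lung. Of 18 animal miRNAs fixed as markers of endothelium, blood, muscle, epithelium and retina, 0 could be matched to a listed name, so the tissue could not be checked. No sequences of the predicted names were used here, and reads shared between near-identical names cannot be told apart.

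Reads under predicted names came to 2427236 in CON 1 and 1588248 in T2 2, within the range of 1532727 to 5384562 of the other 9 libraries. Per the study, CON 1 and T2 2 had lower raw base quality than each of the other 9 small RNA libraries. That difference runs along with the split, and its part in the results was not tested. The reads under plant-prefixed names were 765 and 883 in the 2 libraries and 3314 or more in the others. T2 1 was the deepest library, and its plant-prefixed names came to 644 RPM of all reads, against 1540 RPM or more in the other 8 libraries with many such names. On that scale CON 1 was at 315 RPM and T2 2 at 556 RPM, so T2 1 lay nearer to T2 2 than to those 8. The counts of plant-prefixed names that formed the split were not brought to a common depth. Thinned to 1532727 reads, the depth of the smallest library, 328 predicted names were expected in CON 1 and 356 in T2 2, and between 264 and 350 in the other 9. The ranges overlapped, and the difference of 33.5 names did not pass the test (exact two-sided permutation p = 0.182, 55 assignments of libraries).

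The reads were spread differently over the names. The 10 most abundant predicted names of a library held 79.2% of its reads in CON 1 and 73.8% in T2 2, and from 84.6% to 92.5% in the other 9. The 2 ranges did not overlap (difference of -11.6 percentage points, exact two-sided permutation p = 0.0364). Names of 3p arms held 22.4% of the reads in CON 1 and 27.3% in T2 2, and from 6.19% in T1 1 to 14.2% in T2 1 in the others (difference of 14.3 points, exact two-sided permutation p = 0.0364). This is the smallest p that 2 libraries against 9 can give, and adjusted over the 3 measures tested both were 0.0545. Without the precursor m1080, which carries the most abundant name, the 3p share was 41.9% and 42.0% in the 2 libraries. T2 1 came to 40.2% on that scale, against 7.14% to 31.8% in the other 8. The plot of these measures shows the 2 libraries beside the 9.

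**Figure D1:**
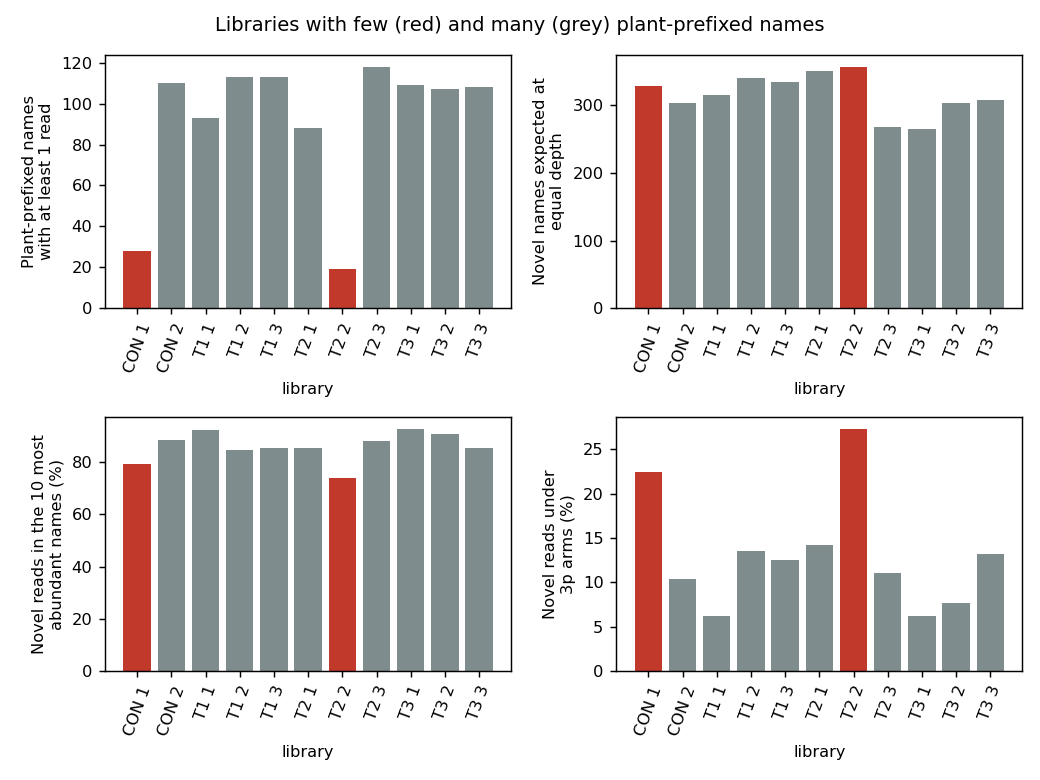
Bars give 1 value per library for CON 1 and T2 2 (red) and the other 9 libraries (grey): plant-prefixed names with at least 1 read, predicted names expected at 1532727 reads, the percentage of predicted-name reads in the 10 most abundant names, and the percentage under 3p arms. CON 1 and T2 2 have the lowest bars for the 10 most abundant names, 79.2% and 73.8%, and the highest for 3p arms, 22.4% and 27.3%.

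Between the 2 libraries and the other 9, 255 predicted names whose mean reached 1 RPM were compared. With limma on log2(RPM + 1), 17 of 255 names were called higher in CON 1 and T2 2 with a 2-fold difference or more and an adjusted p below 0.05, which is 6.67% of those tested, and 0 were called lower. At an unadjusted p under 0.05 there were 74 higher (29%) and 3 lower (1.18%). Both libraries lay above all 9 others for 56 names (22% of those tested), and below all of them for 1 (0.392%). The called names held 11.2% of the reads in CON 1, 12.1% in T2 2 and 5.34% in T2 1, and between 1.41% and 3.46% in the other 8 libraries. Without CON 1 or without T2 2, a single library stands against 9 and is assumed to vary like the others, and limma called 0 names in each case (40 and 32 at an unadjusted p under 0.05). The log2 differences of the 17 were then 1.47 to 5.60 without CON 1 and 1.62 to 4.65 without T2 2. Limma called 1 name without T1 3, T2 3 or T3 2, between 5 and 9 without T1 1, T1 2, T3 1 or T3 3, 15 without CON 2, and 47 without T2 1.

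The shift over all names changed with the scaling, tool and filter settings. On RPM the median log2 difference of all 255 names was 1.07, and 196 of them were positive. With TMM scaling, which estimates library size from the bulk of the names and not from the total, the median was 0.29 and 148 were positive. On the recovered reads the median was -0.048 with edgeR (122 positive) and -0.064 with DESeq2 (124 positive). Without the filter, limma on RPM over all 982 names with a read gave a median of -0.13, with 364 positive and 618 negative. The names this adds all had a mean below 1 RPM. The TMM factors were 1.38 in CON 1 and 2.11 in T2 2, against 0.546 to 1.15 in the other 9. With TMM scaling limma called 0 names, with 35 higher and 13 lower at an unadjusted p under 0.05. On that scale both libraries lay above all others for 24 names (9.41%) and below all others for 8 (3.14%). On the recovered reads DESeq2 called 5 higher and 5 lower, or 1.96% in each direction, and edgeR called 0, with 14 higher and 18 lower at an unadjusted p under 0.05. The split of higher against lower names thus changed between these settings. The TMM factors of edgeR were taken over the 255 tested names, and those used with limma over all names with a read. Scaling and tool were therefore not told apart between them. All 17 called names stayed positive under TMM, RLE, DESeq2 and edgeR (log2 differences of 0.64 to 4.39 under TMM). This is a description, since they were called for being higher on the same libraries.

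**Figure D2:**
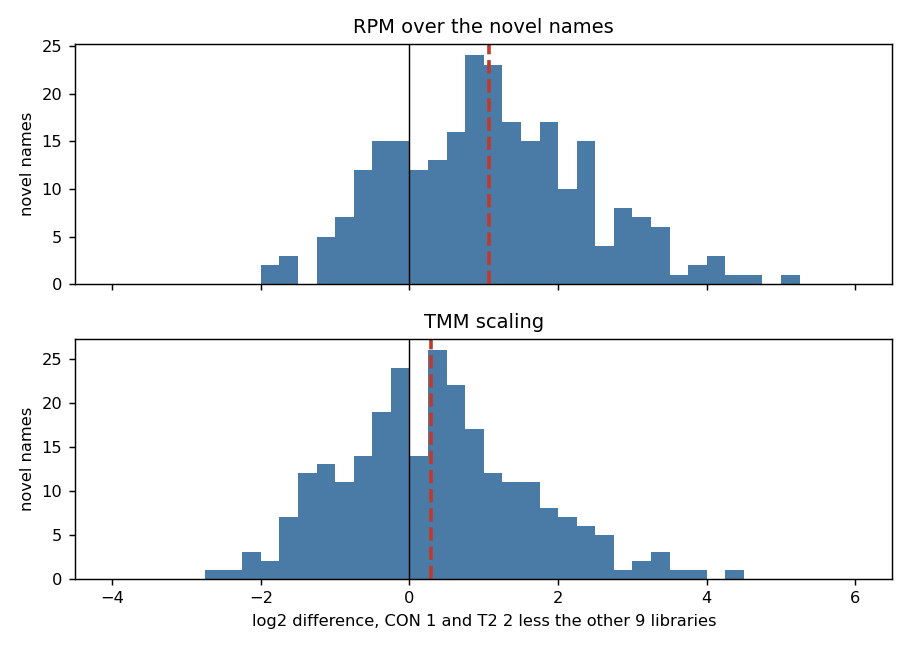
Histograms of the log2 difference of each of 255 predicted names, CON 1 and T2 2 less the other 9 libraries, with RPM over the predicted names (top) and with TMM scaling (bottom). The dashed red line is the median of all names, 1.07 above and 0.29 below, and the black line marks 0.

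CON and T2 hold libraries of both kinds, so the split was also compared within them. With a mean per group in the model, limma called 0 of 255 names, with 31 higher and 1 lower at an unadjusted p under 0.05. The log2 differences of the 17 called names were then between 1.48 and 3.66, all positive, with adjusted p from 0.289 to 0.317. On the log2(RPM + 1) scale, 180 of the 255 names were higher in CON 1 than in CON 2, 203 were higher in T2 2 than in T2 3, and 184 were higher in T2 2 than in T2 1. The 17 called names were higher by 1.45 to 4.21 in CON 1 than in CON 2 and by 1.34 to 6.60 in T2 2 than in T2 3, and 15 of them were higher in T2 2 than in T2 1. Their signs are a description, since the names were called on these same libraries. A test of whether the split differed between CON and T2 called 0 names, and 0 of 255 had an unadjusted p under 0.05 (limma interaction term). CON and T2 each hold a single library with few plant-prefixed names, so this test could hardly find a difference. Its outcome is not read as agreement between the groups. Over the 255 names, the difference of CON 1 from CON 2 and that of T2 2 from T2 3, which share no library, had the same sign for 74.9% and a correlation of r = 0.63 across names. With T2 1 in place of T2 3 the share was 57.6% and r was 0.02. These are descriptions, since names of a library share its scaling and are not independent.

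**Figure D3:**
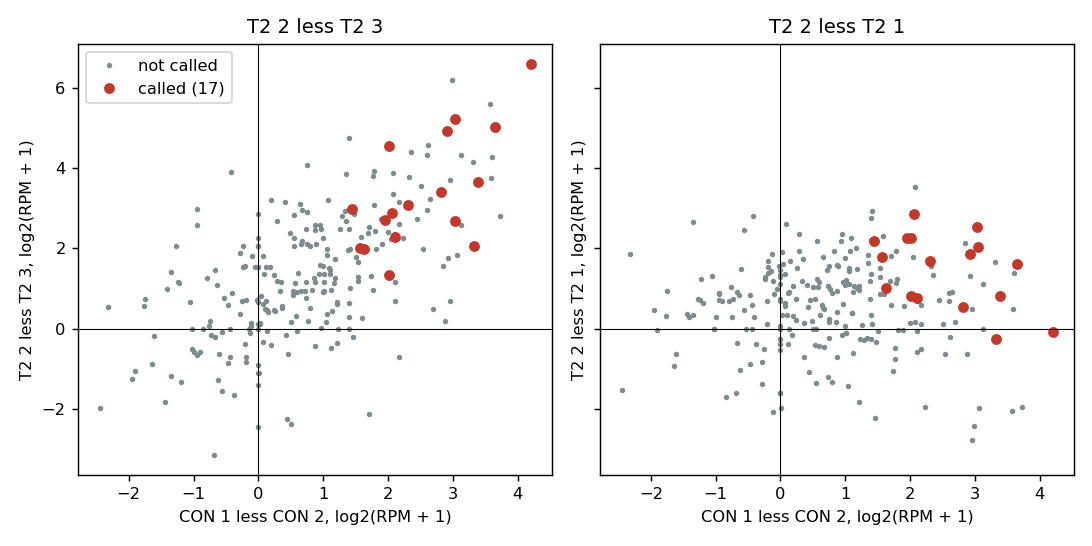
Each point is 1 of 255 predicted names. The horizontal axis is the log2(RPM + 1) difference of CON 1 from CON 2, the vertical axis that of T2 2 from T2 3 (left) or from T2 1 (right), and red points are the 17 called names, all in the upper right of the left panel. The points follow each other on the left (r = 0.63) and not on the right (r = 0.02).

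Among the called names of high level, 4 held over 1% of the reads in both libraries. The name m0270-3p, one of the 10 most abundant of all, was at 42347 RPM in CON 1 and 55054 RPM in T2 2. The other 9 libraries ranged from 2502 RPM in T1 1 to 17095 RPM in T2 1, with a median of 8578. Both libraries lay above the 9, with a log2 difference of 2.84 ± 0.68 (SE, limma adjusted p = 0.0354), or 1.77 above the median of all names. The name m0333-3p was at 18049 and 16030 RPM, against 858 to 2553 RPM in 8 of the others and 10908 RPM in T2 1 (log2 difference of 3.11 ± 0.74, limma adjusted p = 0.0354). T2 1 stood nearer to the 2 libraries than to the 8 for this name. The names m0757-3p, at 27886 and 22571 RPM, and m0822-5p, at 16674 and 20870 RPM, lay above highest values of 12872 and 10334 RPM in T2 1 (log2 differences of 1.68 and 1.89, limma adjusted p = 0.0447 for each).

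At a middle level, m0992 followed the split on both arms. The name m0992-3p was at 536 RPM in CON 1 and 569 RPM in T2 2, and at 64.7 to 119 RPM in the other 9. It had the lowest adjusted p of all names (log2 difference of 2.64 ± 0.50, limma adjusted p = 0.0219). T2 1, at 96.8 RPM, lay within the other 8 here. The other arm, m0992-5p, was at 16.1 and 27.7 RPM against at most 4.95 RPM (2.88 ± 0.74, limma adjusted p = 0.0374). The name m0197-5p was at 320 and 744 RPM, with 21.8 to 56.1 RPM in 8 libraries and 244 RPM in T2 1 (3.45 ± 0.79, limma adjusted p = 0.0354). The name m0278-5p was at 1196 and 639 RPM, above the 102 to 375 RPM of the others (2.40 ± 0.59, limma adjusted p = 0.0354), and m1304-3p was at 99.7 and 117 RPM, above 2.88 to 31.4 RPM (3.64 ± 0.83, limma adjusted p = 0.0354). The name m1200-5p, at 5195 and 4510 RPM against 1117 to 2245 RPM, had the smallest difference of the 17 (1.58 ± 0.44, limma adjusted p = 0.0447). With TMM scaling, 9 of the 17 still had both libraries above all others, among them m0270-3p, m0197-5p, m0992-3p and m0992-5p.

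Some called names rested on few reads. The name m0405-5p had 86 reads in CON 1 and 58 in T2 2, against 0 to 44 in the others, with 44 in the deep T2 1. The name m0676-3p had 58 and 35 reads, against 0 to 6 in 8 libraries and 65 in T2 1, which is 12.1 RPM there and 23.9 and 22.0 RPM in the 2 libraries. The name m1329-3p had 41 and 51 reads, or 16.9 and 32.1 RPM, against at most 8.19 RPM. The log2 differences of these 3 were 3.49, 3.33 and 3.08 (limma adjusted p = 0.0354, 0.0374 and 0.0493). The lowest were m0195-3p, with 7 and 13 reads, m1089-5p, with 11 and 11, and m1367-5p, with 22 and 5, and the last overlapped with T2 1. The pseudocount of 1 RPM bears on these values. The means of m0195-3p and m1089-5p outside CON 1 and T2 2 were 0.37 and 0.53 RPM. They passed the filter of 1 RPM only through the libraries in which they are high, so their calls are a description.

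**Figure D4:**
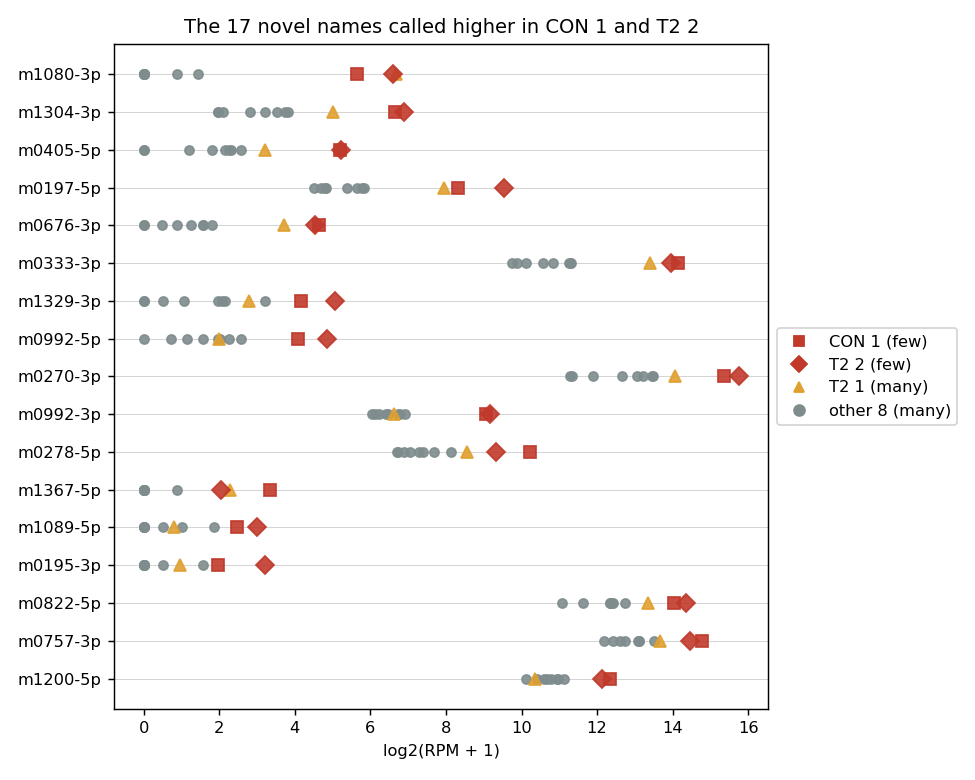
Rows are the 17 predicted names called higher in CON 1 and T2 2, and the horizontal axis is log2(RPM + 1), with 1 point per library. CON 1 (square) and T2 2 (diamond) lie above the other 8 libraries (circles) in every row, and T2 1 (triangle) is the nearest of the 9 in most rows, but not for m0992-3p at 96.8 RPM.

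T2 1 was the library of the 9 nearest to CON 1 and T2 2 in most of these names. It was the highest of the 9 for 11 of the 17 called names, and for 27 of the 56 names (48.2%) in which both libraries lay above all others. Leaving it out, limma on RPM called 46 names higher (18%) and 1 lower (0.392%), the lower one being m0420-5p, and all 17 remained called. With TMM scaling and T2 1 left out, limma called 14 higher (5.49%) and 5 lower (1.96%). T2 1 is also the library with the lowest plant-prefixed RPM of the 9. Its part in these results was measured only by leaving it out.

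A run of names was high in CON 1, T2 2 and T2 1 alike and low elsewhere. Their choice followed a look at the values. The name m0149-5p was at 1144 RPM in CON 1, 768 RPM in T2 2 and 4123 RPM in T2 1, and at 4.57 to 144 RPM in the other 8. The name m0150-5p was at 103, 46.0 and 178 RPM, and at most at 6.84 RPM in the other 8. Likewise m0151-5p was at 59.7, 47.2 and 198 RPM, and at most at 4.10 RPM elsewhere. None of these 3 was called on RPM with T2 1 among the other 9 (log2 differences of 4.73, 4.33 and 4.01, limma adjusted p = 0.113, 0.0881 and 0.0983), and the count tools differed on them. DESeq2 called m0149-5p and m0151-5p (log2 differences of 3.60 and 3.88, adjusted p = 0.0357 for each), while edgeR gave 0.42 and 0.61 (adjusted p = 0.929 and 0.912). DESeq2 was run with its default replacement of outlying counts, so it need not have used the T2 1 reads as recovered. Whether it replaced them was not tested. With T2 1 kept, the mean of m0149-5p was 956 RPM in the 2 libraries and 491 RPM in the other 9. That of m0151-5p was 53.5 and 23.3 RPM. The DESeq2 differences are larger than these means give.

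The most abundant name, m1080-5p, overlapped between the sets, and its other arm, m1080-3p, was high in T2 1 as well as in the 2 libraries. The 5p arm made up 46.5% of reads in CON 1 and 35.1% in T2 2, within the range of 10.1% to 64.6% of the other 9 (log2 difference of 0.12 ± 0.73, limma adjusted p = 0.923), and this small difference turned to -0.82 with TMM scaling. The name m1080-3p had 119 reads in CON 1, 152 in T2 2 and 545 in T2 1. It had 5 reads in CON 2, 2 in T1 2 and 0 in the other 6 libraries. This is 49.0, 95.7 and 101 RPM against at most 1.71 RPM, so T2 1 overlapped with the 2 libraries (log2 difference of 5.12 ± 1.37, limma adjusted p = 0.0401). The count tools differed here too, at 5.40 with DESeq2 (adjusted p = 0.0357) and 1.93 with edgeR (adjusted p = 0.682). CON 2 and T2 3 held more m1080-5p, at 64.6% and 63.2% of reads, than CON 1 and T2 2.

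Of the 10 most abundant names, 1 was called (m0270-3p), and 3 had both libraries above all 9, beside 22% of all names tested. These 3 were m0270-3p, m0271-3p and m0380-3p. The name m0271-3p was at 38558 and 46484 RPM, above 5520 to 25683 RPM (1.81 ± 0.56, limma adjusted p = 0.0607). The name m0380-3p was at 37708 and 50034 RPM, with the 9 others between 3467 and 37327 RPM (1.45, limma adjusted p = 0.274). The median difference of the 10 was 0.41, below the 1.07 of all names. The 5p names m1355-5p, m1356-5p, m0360-5p and m0753-5p, together with m1080-5p, m1358-5p and m0867-5p, overlapped between the sets. For m0360-5p the 2 libraries were at 36017 and 38891 RPM within 28034 to 158094 RPM (-0.88 ± 0.61, limma adjusted p = 0.345). The values of m1355-5p, m1356-5p, m0360-5p and m0753-5p were highest in T1 1, T3 1 and T3 2, and without these 3 libraries limma called 23 names higher (9.02%) and 0 lower, 13 of them among the 17.

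In the opposite direction 0 names were called on RPM, and the 5 names with the lowest unadjusted p are given. The name m0789-5p had 0 reads in both libraries and 1 to 13 reads in each of the other 9, so that it alone was below all of them (-1.51 ± 0.60, limma adjusted p = 0.118). The level that 3 reads represent was 1.24 RPM in CON 1 and 1.89 RPM in T2 2, and T3 1 and T3 2 had 1 read each. The name m0420-5p was at 759 and 920 RPM, with 589 RPM in T2 1 and 1532 to 2863 RPM in the other 8 (-1.12 ± 0.56, limma adjusted p = 0.188). The name m0715-3p was at 40.0 and 20.8 RPM, with 16.2 RPM in T2 1 and 48.1 to 220 RPM in the other 8 (-1.53 ± 0.84, limma adjusted p = 0.242). For both, T2 1 was the lowest of all libraries. The names m1030-5p and m0944-5p, both at most at 21.4 RPM in any library, had limma adjusted p of 0.137 and 0.140. DESeq2 called m0420-5p, m0715-3p, m0789-5p, m0822-3p and m0442-3p lower, the last at 2888 and 3609 RPM within 2855 to 8768 RPM.

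Both arms of a precursor were then set side by side. Of the 17 called names, 14 had their other arm tested, and 12 of these were positive, with a median log2 difference of 1.31 beside the 1.07 of all names. Of these pairs, only m0992-3p and m0992-5p were both called, and each is counted above as the other arm of its partner. Of the 12 other arms not called, 10 were positive, beside 196 of all 255 names. The other arms m1304-5p, at 218 and 215 RPM against 0 to 72.6 RPM, and m0676-5p, at 85.7 and 80.0 RPM against 0.575 to 49.2 RPM, lay above all 9 others but were not called (log2 differences of 4.07 and 3.21, limma adjusted p = 0.0826 and 0.0747). The arms of m0822 went apart: m0822-5p rose in the 2 libraries, as given above, while m0822-3p was at 1507 and 1584 RPM, with 1282 RPM in T2 1 and 2060 to 3003 RPM in the other 8 (-0.64 ± 0.45, limma adjusted p = 0.351). Over 3p names the median difference was 1.35 (9 of 110 called) and over 5p names 0.84 (8 of 145 called).

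Ratios of the 5p to the 3p arm were compared over the 82 precursors with both arms tested, a comparison chosen after the data were seen. The ratio was taken on RPM + 1, so where an arm has few or 0 reads it follows the scaled level of the other arm. The log2 ratio of m0822 was 3.47 in CON 1, 3.72 in T2 2 and 3.01 in T2 1, and between -0.21 and 1.50 in the other 8 libraries. The log2 ratio of m1335 was -0.43 and -0.60 in the 2 libraries and from 1.02 to 2.98 in the 9. That of m1200 was 12.3 and 12.1, above 7.97 to 10.97, but m1200-3p had 0 reads in both libraries and at most 13 in any other. Limma called 0 of 82 precursors (0% of those tested), with 15 at an unadjusted p under 0.05, and the lowest adjusted p was 0.0947, shared by m0822, m1335, m1200 and m1080 (log2 ratio differences of 2.53, -2.24 and 2.61 for the first 3). In 7 precursors (8.54%) both libraries had a higher ratio than all 9 others, and in 8 (9.76%) a lower one. Without T2 1, m0822 (limma adjusted p = 0.0122) and m1080 were called, and with a pseudocount of 10 there were 4 calls.

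**Figure D5:**
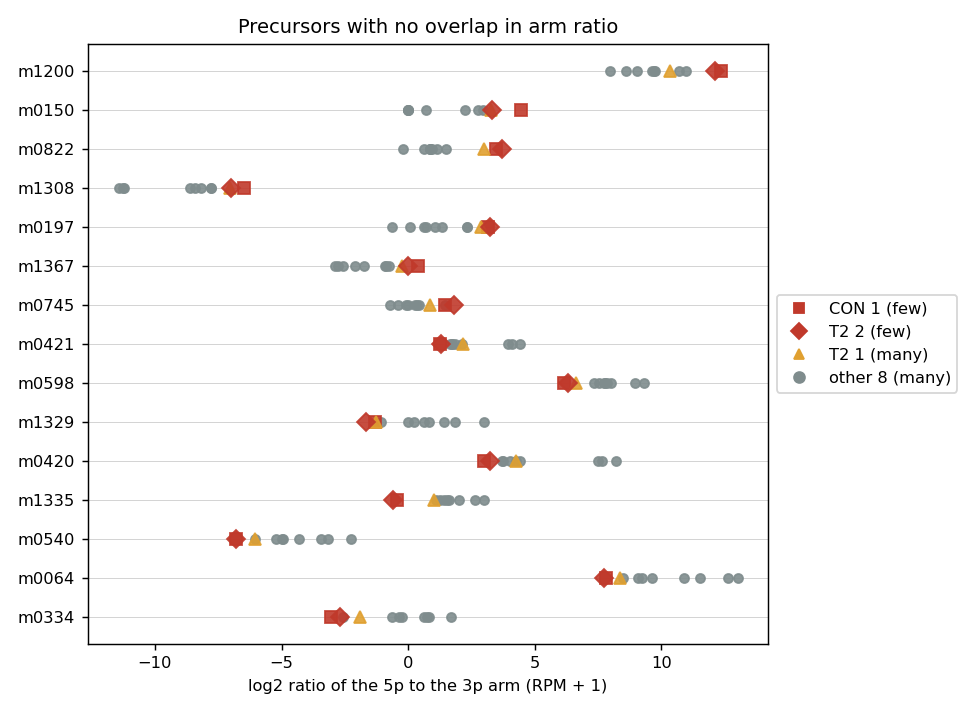
Rows are the 15 precursors in which the log2 ratio of the 5p to the 3p arm did not overlap between CON 1 and T2 2 and the other 9 libraries, with 1 point per library. For m0822 the ratios are 3.47 in CON 1 (square), 3.72 in T2 2 (diamond) and 3.01 in T2 1 (triangle), and at most 1.50 in the other 8 (circles).

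The values of 3 names chosen because they follow species are given as a description. Cattle held m0552-3p at 3.30 RPM (CON 1) and 9.92 RPM (CON 2), and it was at 994 RPM in T2 2, the highest of the 9 yak libraries. Likewise m1030-3p was without a read in cattle and at 83.7 RPM in T2 2, the highest yak value. The name m0229-3p was at 8.65 and 7.87 RPM in cattle and at 1.89 RPM or less in each yak library, T2 2 included. None of the 3 was called for the split (limma adjusted p = 0.461, 0.861 and 0.146).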

How the data were processed

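Small RNA libraries from lung of 2 cattle and 9 yaks were analysed. As the study describes, the authors trimmed reads, set other small RNAs aside against Rfam, named known miRNAs from miRBase, and predicted others with Bowtie2 and MIREAP on the yak assembly BosGru_v2.0 (versions not given in the sources used here). The authors deposited RPM values, and 100.0% of the 4651 values above 0 were whole multiples of 1 read within 0.01 reads, so reads were recovered. RPM was recomputed over the 1046 predicted names, of which 982 had a read and 255 a mean of at least 1 RPM. Libraries with fewer than 50 plant-prefixed names above 0 were compared with the others by limma 3.58.1 (R 4.3.3, variance trend, log2(RPM + 1), Benjamini-Hochberg adjusted p under 0.05 and a 2-fold difference). On the log2(RPM + 1) scale the differences of low names come out too small. Since the 2 libraries were chosen from their own values, p-values measure association with that choice. Without a mean per group, the spread it is set against includes differences of species and altitude as well as those between animals. DESeq2 1.42.0 (with its default replacement of outlying counts), edgeR 4.0.16, TMM and other settings were alternatives. Single values per library were tested by exact permutation (numpy 2.4.6, Python 3.11.15). Scripts were tested on simulated data. Members, lists and tests were chosen with earlier results of these data known. Names given were up to 10 called names per direction without overlap (or the 5 lowest unadjusted p), their other arms, the 10 most abundant names and 3 names that follow species; m1080-3p, the further called names, m0149-5p to m0151-5p and the arm ratios were chosen after their values were seen. Other arms not described were m0405-3p, m0715-5p and m0944-3p, which did not pass the filter, and m0197-3p, m0270-5p, m0333-5p, m0420-3p and m1329-5p, which were not called. Replicate numbers were not taken to pair animals, since the groups hold different animals from different places per the study. Deviations of same-numbered libraries from their group means correlated at -0.48 to 0.59, which cannot by itself show a pairing or its absence.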

Additional observations from a re-analysis of the deposited data

Results flagged for a closer look

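The 9 yak libraries were searched on 19 measures for a single library far from the rest by Dixon's test, and 5 such values were found. Chance flags about 1 in 20 such groups, but the measures include the count that chose T2 2 and names called for being high in it, so the number found is not set against chance. T2 1 held 5384562 reads under predicted names, against 2523522 in the next library. T2 2 held 19 plant-prefixed names, against 88 in the next, which is the value it was chosen by. It held 73.8% of its predicted-name reads in the 10 most abundant names, against 84.6% in the next, and 27.3% under 3p arms, against 14.2% in the next. It held m0992-3p at 9.16 on the log2(RPM + 1) scale, against 6.90 in the next. The 4 values of T2 2 come from 1 library and are not independent.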

How the results depend on the processing

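The count of 17 called names, and not their direction, changed with most settings. All 17 were positive under every setting in which they were tested. They were picked for being higher on these same libraries, so their lasting sign is a description and not a test. Limma called 0 names with a mean per group, with the replicate block, in yak libraries alone, on RPM without m1080-5p, with TMM and with RLE scaling (32, 80, 40, 40, 48 and 48 at an unadjusted p under 0.05), and edgeR called 0 (32). Limma called 11 of 97 names with 10 reads in every library, 9 of 150 with a mean of 10 RPM, 5 with a pseudocount of 0.1, 35 with a pseudocount of 10, and 77 at an unadjusted p, and DESeq2 called 10. Deposited RPM gave 17 and no filter 15. With libraries left out, the count ran from 0 to 47: 0 without CON 1 or T2 2, 1 without T1 3, T2 3 or T3 2, 5 without T1 2, 6 without T3 3, 9 without T1 1 or T3 1, 15 without CON 2, and 47 without T2 1. Among settings added after seeing the data, TMM without T1 1, T3 1 and T3 2 gave 3. The cause was not tested. Replicate numbers are shared between groups by number alone, so a call lost under the block is not read as a weaker effect.

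The difference in the share of the 10 most abundant names ran from -14.3 to -8.87 points, that under 3p arms from 11.9 to 16.7, and names at common depth from 19.5 to 47.4, when libraries were left out. Without CON 1 or T2 2, 1 library stands against 9 and the exact test cannot pass 0.05. Precursors called on arm ratios ran from 0 to 2 with libraries left out (2 without T2 1), 2 without T1 1, T3 1 and T3 2, 4 with a pseudocount of 10, and 15 at an unadjusted p. The interaction of CON and T2 called 112 names with no filter, 105 of them with reads only in CON libraries or T2 2, which the fit then sets by themselves.

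Signs of uncalled names turned as follows (log2). TMM: m0269-3p -0.22, m0867-5p -0.25, m1080-5p -0.82, m1358-5p -0.041. RLE: m0269-3p -0.30, m0867-5p -0.33, m1080-5p -0.89, m1358-5p -0.12. TMM without T2 1: m0269-3p -0.37, m0867-5p -0.48, m1080-5p -0.80, m1358-5p -0.11. TMM without T1 1, T3 1 and T3 2: m0197-3p -0.082, m0269-3p -0.23, m0270-5p -0.25, m0333-5p -0.72, m0380-3p -0.39, m0420-3p -0.83, m0867-5p -0.12, m1080-5p -1.51, m1329-5p -0.606, m1358-5p -0.35. edgeR: m0269-3p -0.34, m0333-5p -0.13, m0420-3p -0.47, m0867-5p -0.46, m1030-3p 0.21, m1080-5p -1.0004, m1329-5p -0.39, m1358-5p -0.20. DESeq2: m0269-3p -0.38, m0270-5p -0.064, m0333-5p -0.10, m0420-3p -0.49, m0867-5p -0.48, m1030-3p 0.33, m1080-5p -1.01, m1329-5p -0.38, m1358-5p -0.22. Mean per group: m0552-3p 0.59, m0753-5p 0.67, m1030-3p 1.20, m1080-5p -0.70, m1355-5p 0.56, m1356-5p 0.45. Without T1 1, T3 1 and T3 2: m0753-5p 0.33, m1080-5p -0.57, m1355-5p 0.46, m1356-5p 0.20. Yak alone: m0552-3p 1.73, m1030-3p 2.36. Pseudocount 10: m1030-3p 0.36. Without CON 1: m0552-3p 2.26, m1030-3p 2.81, m1080-5p -0.08. Without T2 2, m0552-3p was -5.59 and m1030-3p -3.60, the lowest with a library left out. Without T3 1 or T3 2, m1080-5p was -0.07 and -0.11.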
